A study of Mus musculus with 6 samples.

Results

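Myelin is the membrane that oligodendrocytes wrap around axons in the central nervous system. Its layers are held together by a small set of abundant proteins and are rich in galactolipids, which are built from ceramide by dedicated enzymes. Loss of single myelin proteins or of galactolipid synthesis is known to disturb the structure or the long-term upkeep of the sheath. The genes described here are 10 genes of mature oligodendrocytes, chosen by symbol from the 55450 genes counted: 7 that encode myelin proteins (Mbp, Mog, Mag, Mobp, Cnp, Mal and Opalin) and 3 that encode enzymes of galactolipid synthesis (Ugt8a, Fa2h and Gal3st1). Each symbol matched 1 Ensembl gene, and all 10 passed the filter on low counts.

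They were measured by sequencing of long RNA from whole mouse brain in 3 TRMT1L KO and 3 wild-type (WT) libraries. TRMT1L is a relative of the tRNA-modifying methyltransferase TRMT1, and the comparison asks how its loss changes brain RNA. The labels call the libraries biological triplicates and give no allele, strain, sex or age for either genotype, nor whether the knockout is confined to some cells. Counts in genes lay between 31201119 and 36145961 per library. In CPM, reads per gene scaled to the size of the library, Trmt1l stood at 34.4 ± 1.26 for the WT libraries and at 2.87 ± 0.171 for the KO libraries (SD, n = 3 each), so each library carried the gene on the side its label gives. Of 21237 genes tested for genotype with edgeR's quasi-likelihood test, 0.00942% passed at an adjusted p-value of 0.05. All values below are TMM-scaled CPM unless a log2 value is named, and log2 fold changes are KO over WT with their standard error (SE).

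The start regions of 4 of the genes are shown first, picked after their levels over the libraries were seen. Mog and Mag went together closely, Mobp did not follow them, and Ugt8a was the member that separated the genotypes. Fa2h and Cnp also followed Mag (Pearson correlation 0.94 and 0.82) but are not printed. Whether start sequence and levels go together was not tested. RefSeq promoter windows (GRCm38.p6) were matched for 8 of the 10 genes, all but Mbp and Fa2h. The bases before each RefSeq start were searched on both strands for ACAAAG or ACAATG, cores bound by SOX factors such as SOX10, for CTGGCAC or CTGGTAC, forms of the motif of the myelin regulator MYRF, for the GC box GGGCGG, for the E-box CAGCTG and for TATAAA. Matches are in capitals, written as they read on the gene's strand. Only overlapping GC boxes shared letters. The sequences printed here end where an annotated exon begins, while the counts below cover all 250 bases before each RefSeq start.
Mog (chr17:37023399-37023648, minus strand): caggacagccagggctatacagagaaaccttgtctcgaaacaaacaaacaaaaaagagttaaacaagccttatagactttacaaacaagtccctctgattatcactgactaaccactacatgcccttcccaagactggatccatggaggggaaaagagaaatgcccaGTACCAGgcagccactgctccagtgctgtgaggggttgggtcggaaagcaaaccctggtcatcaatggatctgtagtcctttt
Mag (chr7:30914874-30915113, minus strand): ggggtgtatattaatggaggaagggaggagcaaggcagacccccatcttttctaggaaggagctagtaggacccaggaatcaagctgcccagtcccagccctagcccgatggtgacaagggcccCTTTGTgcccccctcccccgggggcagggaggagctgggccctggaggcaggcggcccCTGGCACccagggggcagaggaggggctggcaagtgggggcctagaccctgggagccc
Mobp (chr9:120149492-120149706, plus strand): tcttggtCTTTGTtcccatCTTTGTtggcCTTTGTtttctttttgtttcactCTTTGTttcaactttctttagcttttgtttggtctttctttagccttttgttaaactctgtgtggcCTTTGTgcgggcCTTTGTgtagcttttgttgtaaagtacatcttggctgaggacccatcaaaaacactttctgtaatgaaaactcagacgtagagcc
Ugt8a (chr3:125938653-125938902, minus strand): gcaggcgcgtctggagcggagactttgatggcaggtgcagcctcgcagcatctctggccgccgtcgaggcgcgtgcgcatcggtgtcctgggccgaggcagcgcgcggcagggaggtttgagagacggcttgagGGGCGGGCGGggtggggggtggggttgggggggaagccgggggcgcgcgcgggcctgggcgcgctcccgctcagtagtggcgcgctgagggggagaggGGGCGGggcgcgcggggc

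The 8 genes did not share one kind of start. The 8 genes have 12 windows in all, since Mag and Gal3st1 have several starts. A MYRF letter match stood in 4 of the 12 windows, those of Mog, Mag and Cnp, against 5.93% of all 32851 windows. A SOX core stood in 7 of the 12 windows, before Cnp, Gal3st1, Mag, Mobp and Opalin, against 25.2% of all windows. The matched windows of Mag overlap each other, as do those of Gal3st1, so these are not separate sites. Both kinds stood in one window before Cnp and Mag, and 1.55% of all windows held both. Mobp held 6 copies of the core, and its window was the sole one in the table with that many. CAGCTG and TATAAA stood in 0 of the 12 windows, against 13.0% and 12.4% of all windows. The GC box stood in 2 of the 12 windows, those of Cnp and Ugt8a, against 32.7% of all windows. The match of Cnp reached past the start of an annotated exon. The window of Ugt8a held 3 GC boxes, a number reached by 8.47% of windows, and none of the other matches. It was also the most GC-rich of the members' windows, at 76.8%, where the median of all windows was 52.4% and that of Mobp was 40.8%. These are letter matches and not measured binding sites.

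Levels were compared between genes per length, as CPM per kilobase of all annotated exons of a gene. In WT they ran from 216 ± 11.97 for Mbp, which encodes the basic protein that seals the cytoplasmic faces of compact myelin, to 4.36 ± 0.233 for Gal3st1 (SD, n = 3). Mobp, another small basic protein of compact myelin, came next at 84.0 ± 1.54. Cnp, a cyclic nucleotide phosphodiesterase of non-compact myelin, stood at 53.7 ± 3.37, and Mal, a proteolipid of membrane rafts and vesicle transport, at 49.0 ± 2.09. Mag, the adhesion protein facing the axon, stood at 37.9 ± 3.43 and Mog, an immunoglobulin-domain protein of the outermost layer, at 25.1 ± 2.29. Ugt8a and Fa2h followed at 16.7 ± 1.09 and 11.3 ± 0.925, and Opalin, a transmembrane glycoprotein of oligodendrocytes, at 5.56 ± 1.12. The order was the same in KO. The libraries' ranges overlapped between the neighbours Cnp and Mal and between Opalin and Gal3st1, in both genotypes, and between no other neighbours. The exon length of Mbp, 8469 bases over 16 annotated transcripts, counts exons that a given transcript need not use, so its level per length is a low estimate.

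**Figure D1:**
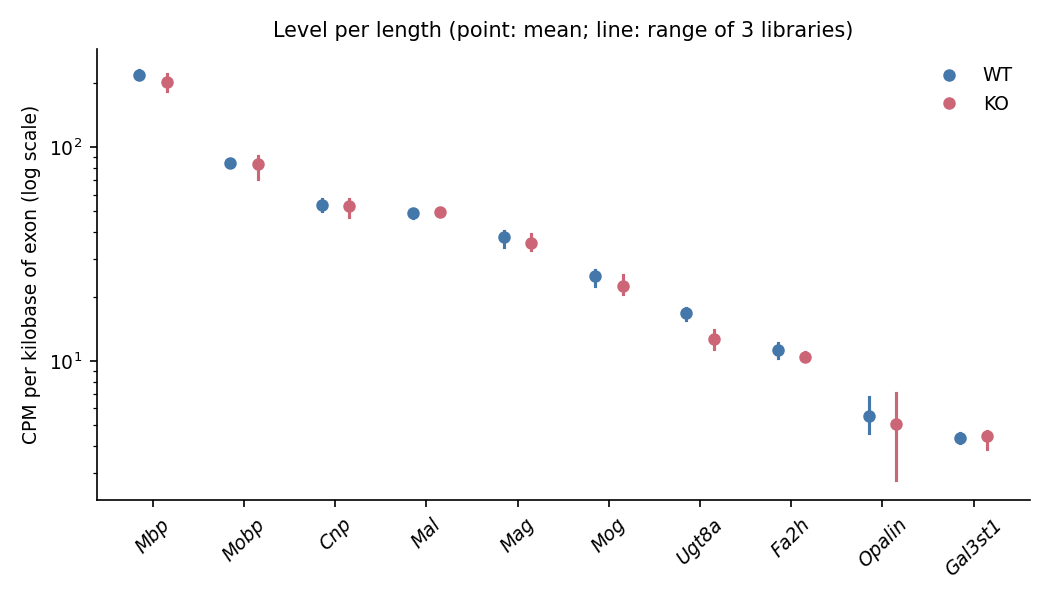
Level per length of the 10 genes, as CPM per kilobase of annotated exon on a log scale, with points for the mean and lines for the range of 3 libraries in WT (blue) and KO (red). The genes keep their order between genotypes, from Mbp at 216 in WT to Gal3st1 at 4.36, and Ugt8a is the gene whose ranges do not overlap.

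No member passed the test across all genes, and 8 of the 10 had a log2 fold change below 0. The median over the 10 was -0.10, against 0.00013 over all genes tested. The groups failed to overlap for 1 member, Ugt8a, which was lower in every KO library; 6.97% of all genes tested had every KO library below every WT library. The opposite order, every KO library above every WT library, held for 0 members and 7.46% of all genes, and either order for 14.4%. Without adjustment 1 member, again Ugt8a, had a p-value under 0.05 with a lower KO level, as did 3.38% of all genes tested, and 0 members had one with a higher KO level, as did 4.54%. The number of members with an unadjusted p-value under 0.05, in either direction, moved with the processing. It was 3 with GC correction, where 4.35% of all genes tested had such a p-value, and 5 with the replicate block and GC correction (3.83% of all genes). It was 3 without a filter on low counts (6.73%), 4 without KO library 1 (8.58%) and 4 without WT library 3 (6.32%). With the replicate block alone it was 2 (6.85%), without KO library 3 also 2 (8.01%), and under every other alternative 1. The number of members below 0 ran from 6 to 10 over the alternatives. A lower level of the 10 genes was thus not established, and whole-tissue libraries cannot tell fewer oligodendrocytes from less RNA per oligodendrocyte.

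Among the galactolipid genes, Ugt8a encodes the enzyme that adds galactose to ceramide and so makes galactosylceramide. It lies on chromosome 3 from 125865271 to 125938619 on the minus strand (GRCm38). It was counted 2909, 2202 and 2525 times in WT libraries 1 to 3, and 2205, 1925 and 1873 times in KO libraries 1 to 3. Scaled, this was 79.9, 70.2 and 76.7 CPM in WT and 63.5, 57.2 and 51.8 CPM in KO. The highest KO library was thus below the lowest WT library. KO held 0.760 times the WT level, or -0.40 on the log2 scale (SE 0.0745; edgeR quasi-likelihood test, adjusted p = 0.542). By its unadjusted p-value of 0.000207 the gene ranked 7 among the 21237 genes. The rank was 42 without WT library 1 or WT library 3, 26 without KO library 2, 34 without KO library 3 and 43 without a filter on low counts. The call depended on the tool and on the filter on low counts. The DESeq2 Wald test gave the same change with an adjusted p-value of 0.000828 and edgeR without the filter gave 4.53e-08, while limma-voom gave 0.568, and the adjusted p ran from 4.53e-08 to 0.994 over all alternatives. Ugt8a had the lowest GC content of the members' transcripts, 38.0%, and with GC correction its log2 fold change was -0.31.

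Fa2h encodes the hydroxylase that supplies hydroxylated fatty acids for these lipids. It stood at 36.5, 34.6 and 31.0 CPM in WT and at 33.2, 30.7 and 30.5 CPM in KO. The groups overlapped, with the lowest WT library among the KO values. The log2 fold change was -0.11 (SE 0.0702; edgeR adjusted p = 0.717), and -0.17 with GC correction. Gal3st1 encodes the sulfotransferase that turns galactosylceramide into sulfatide. It was the least counted member, with 265 to 349 reads per library, and stood at 9.40, 8.45 and 8.84 CPM in WT and 9.64, 7.90 and 9.66 CPM in KO. Its highest and lowest libraries were both KO. The log2 fold change was 0.03 (SE 0.105; edgeR adjusted p = 0.968) and turned to -0.07 with GC correction.

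Of the 3 galactolipid genes, Ugt8a and Fa2h were thus below 0 and Gal3st1 above, and with GC correction all 3 were below 0. No test compared the 3 with each other. Their summed level was 126, 113 and 117 CPM in WT and 106, 95.7 and 91.9 CPM in KO. The sums did not overlap between genotypes, and Ugt8a, the most abundant of the 3, makes up most of them. The other genes that supply or break down these lipids were followed in a list of 18, which holds ceramide synthesis, transport of galactose and sulfate donors, and lysosomal breakdown. In this list 9 genes lay higher and 9 lower in KO, the median log2 fold change was -0.0021, and 0 passed the test (edgeR; 0 with an unadjusted p-value under 0.05). Psap, which encodes the lysosomal saposins, had the smallest unadjusted p-value, with 0.06 (SE 0.0388; edgeR adjusted p = 0.713), and 0.0082 with GC correction. Slc35a2, the UDP-galactose transporter, had 0.13 (SE 0.0795), or 0.07 with GC correction, and Papss1, which makes the sulfate donor, had 0.08 (SE 0.0501), or 0.048 without WT library 2.

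**Figure D2:**
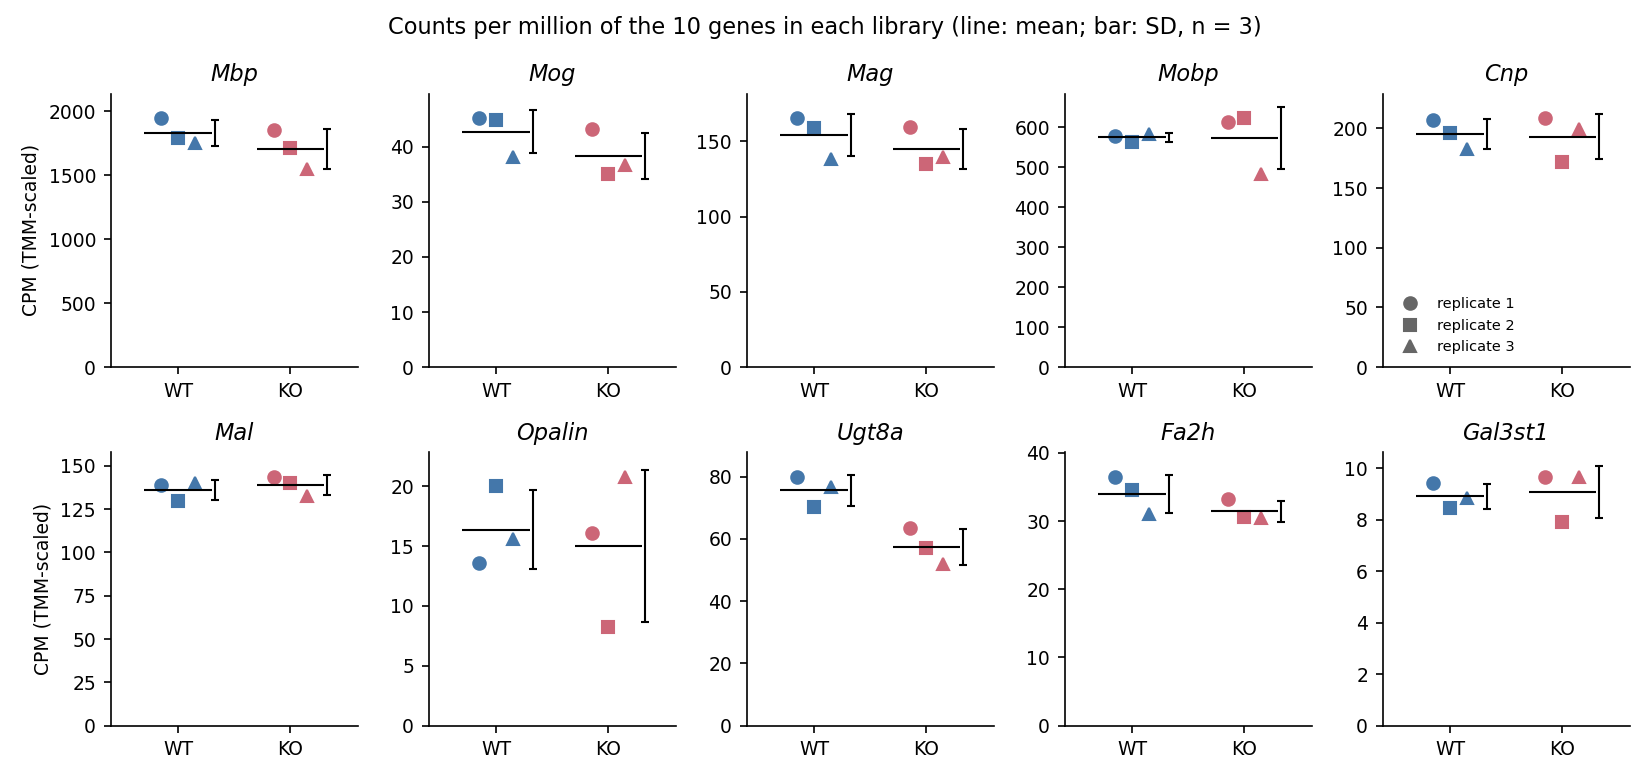
CPM of each of the 10 genes in 3 WT (blue) and 3 KO (red) libraries, on axes that start at 0, with marker shapes for replicate numbers, a line at the mean and a bar of 1 SD. Ugt8a is the panel in which the groups separate (70.2 to 79.9 in WT, 51.8 to 63.5 in KO), and Opalin is the panel with the widest scatter.

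The structural genes of compact myelin did not separate the genotypes. Mbp stood at 1946, 1792 and 1755 CPM in WT and at 1859, 1711 and 1552 CPM in KO. KO library 1 lay within the WT range and the other two KO libraries below it. The log2 fold change was -0.10 (SE 0.0613; edgeR adjusted p = 0.712). Mobp stood at 579, 563 and 583 CPM in WT and 613, 623 and 484 CPM in KO. KO libraries 1 and 2 were above every WT library and KO library 3 below, and the log2 fold change was -0.01 (SE 0.0773; edgeR adjusted p = 0.991). Without KO library 3 it was 0.10. Reads in the exons that Mobp shares with Gm38642, a feature on the same strand, were left out of both by the counting.

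Mal had the smallest spread of the 10, with 139, 130 and 140 CPM in WT and 144, 140 and 132 CPM in KO. Its groups overlapped almost fully, and the log2 fold change was 0.03 (SE 0.0498; edgeR adjusted p = 0.924). Cnp stood at 207, 196 and 183 CPM in WT and 208, 172 and 199 CPM in KO, so that KO held both the highest and the lowest library. Its log2 fold change was -0.02 (SE 0.0697; edgeR adjusted p = 0.971).

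The 2 adhesion proteins of the sheath, Mag and Mog, went up and down in the same libraries. Mag stood at 165, 159 and 139 CPM in WT and 160, 135 and 140 CPM in KO, or -0.09 on the log2 scale (SE 0.0746; edgeR adjusted p = 0.793) and -0.17 with GC correction. Mog stood at 45.2, 44.8 and 38.2 CPM in WT and 43.1, 35.1 and 36.7 CPM in KO, or -0.16 on the log2 scale (SE 0.0860; edgeR adjusted p = 0.675). In both, WT libraries 1 and 2 and KO library 1 were high, and WT library 3 and KO libraries 2 and 3 were low. The 3 high libraries were the same for Fa2h.

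Opalin varied most. It was counted 493, 627 and 512 times in WT and 560, 276 and 751 times in KO, or 13.5, 20.0 and 15.6 CPM in WT and 16.1, 8.20 and 20.8 CPM in KO. KO library 2 was the lowest and KO library 3 the highest of all. The SD within genotypes was 0.53 on the log2 CPM scale, larger than that of 99.9% of the 10645 genes with a mean of at least 10 CPM. For the other members the SD lay between 0.06 (Mal) and 0.15 (Mog). The log2 fold change of Opalin was -0.12 (SE 0.251; edgeR adjusted p = 0.933), with 0.18 when KO library 2 was left out and -0.42 when KO library 3 was left out, so its direction rests on single libraries.

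**Figure D3:**
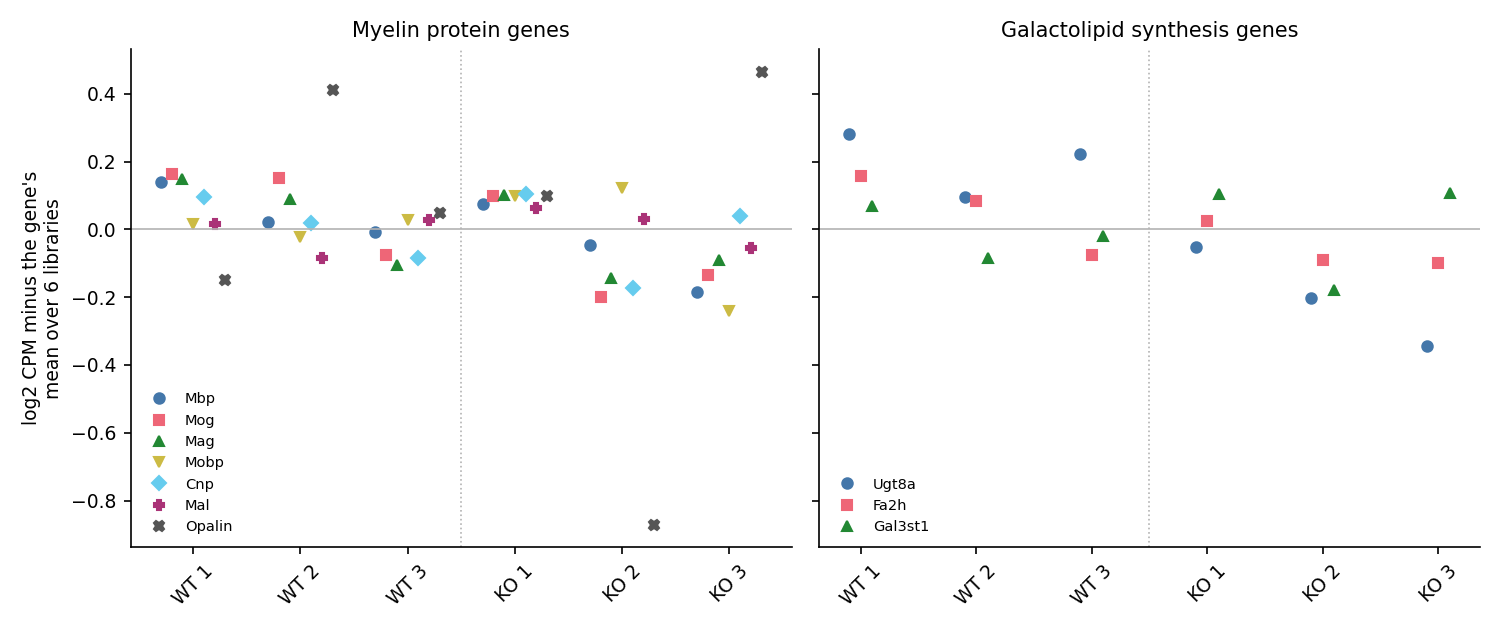
Deviation of each gene's log2 CPM from its mean over the 6 libraries, by library, for the 7 myelin protein genes (left) and the 3 galactolipid genes (right); each marker is 1 gene. Opalin falls to -0.87 in KO library 2, and Ugt8a is above 0 in the 3 WT libraries and below 0 in the 3 KO libraries.

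Set against each other, the myelin proteins exceeded the galactolipid genes by a mean of 2.45, 2.61 and 2.49 in log2 CPM in WT libraries 1 to 3 and by 2.62, 2.53 and 2.64 in KO libraries 1 to 3. The ranges overlapped. The mean log2 fold change of the proteins exceeded that of the galactolipid genes by 0.10, where the SD of the library values within genotypes was 0.07. Ugt8a, at -0.40, weighs most in this: Fa2h and Gal3st1 had -0.11 and 0.03, and the medians were -0.09 for the proteins and -0.11 for the galactolipid genes. The median deviation of the 10 genes was 0.12, 0.05 and -0.01 in WT and 0.10, -0.16 and -0.10 in KO, so KO library 1 lay among the WT libraries. The SD of this median within genotypes was 0.11.

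**Figure D4:**
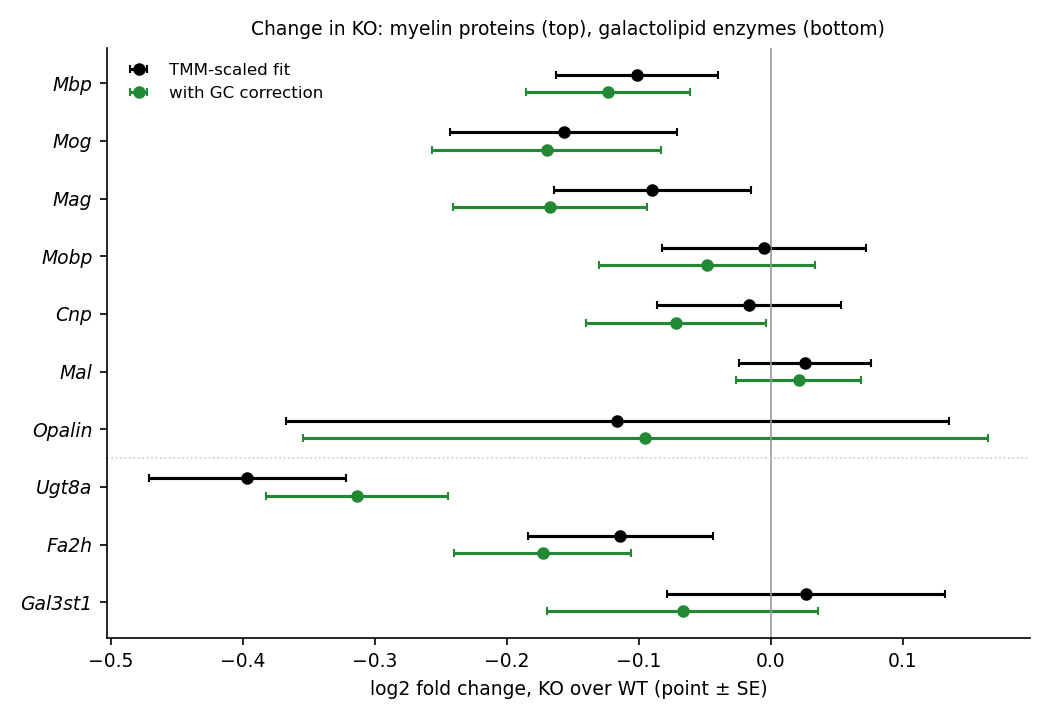
Log2 fold change (KO over WT, point and SE) of the 10 genes in the TMM-scaled fit (black) and with GC correction (green). Ugt8a lies lowest at -0.40, or -0.31 with GC correction; the other genes lie between -0.17 and 0.03 in either fit.

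Beside the 10, a list of 32 further genes of mature oligodendrocytes was read. Of these 25 lay lower and 7 higher in KO, the median log2 fold change was -0.11, and 0 passed the test (edgeR; 4 lower and 1 higher with an unadjusted p-value under 0.05). Among the genes of this list with the smallest p-values were Ermn, an actin-binding protein (-0.19, SE 0.0633), the tetraspanin Tspan2 (-0.15, SE 0.0504), the cell cycle inhibitor Cdkn1c (0.36, SE 0.138), Nipal4 (-0.33, SE 0.145) and the aspartoacylase Aspa (-0.27, SE 0.124). Their edgeR adjusted p-values lay between 0.579 and 0.628. Several of these values moved with the processing. With 1 library left out Nipal4 ran from -0.47 (without KO library 1) to -0.19 (without WT library 1) and Aspa from -0.45 (without KO library 1) to -0.13 (without KO library 2). Ermn had -0.11 with GC correction, and Cdkn1c had 0.21 in unstranded counts.

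Lists of other genes of the lineage were read in the same way, and differences between the lists were not tested. Of 12 transcription factors of oligodendrocytes, some of which also act in mature cells, 8 lay higher and 4 lower in KO, with a median log2 fold change of 0.05 and 0 past the test (edgeR; 1 higher and 2 lower without adjustment). Zeb2 had -0.12 (SE 0.0449), Zfp536 0.16 (SE 0.0650) and St18 -0.15 (SE 0.0665). With GC correction Zeb2 had -0.057 and Zfp536 0.083, and without WT library 1 St18 had -0.095. Of 14 genes of precursors and premyelinating cells, 7 lay on each side, with a median of 0.00034 and 0 past the test (edgeR; 0 without adjustment). Ptprz1 had -0.09 (SE 0.0484), Enpp6 -0.34 (SE 0.208) and Sox6 -0.08 (SE 0.0687). The value of Enpp6 ran from -0.55 without KO library 1 to -0.074 without WT library 1, and without KO library 1 Ptprz1 had -0.040 and Sox6 -0.031.

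Markers of other cells and regions were read in the same libraries, and 0 genes of these lists passed the test (edgeR). The list for the caudal brainstem and spinal cord, regions rich in white matter, holds 16 genes, of which 11 were tested. All 11 had a log2 fold change below 0, with a median of -0.65, and 1 had an unadjusted p-value under 0.05. Its summed level was 46.3, 41.1 and 62.2 CPM in WT and 62.0, 34.5 and 28.9 CPM in KO, most of it from Slc6a5, the glycine transporter of glycinergic neurons. KO libraries 2 and 3 were the lowest and KO library 1 was near the highest. KO libraries 2 and 3 were also the lowest for Mbp, Mog, Ugt8a and Fa2h. For the other members they were not the lowest pair: KO library 2 was the highest of all for Mobp, and KO library 3 was the highest for Opalin and Gal3st1. The part of these regions in the values of the myelin genes was not tested. Hoxa4 and Hoxb6, each at under 1 CPM, rest on few reads. Hoxa4 was counted 18, 8 and 26 times in WT and 18, 7 and 5 times in KO. Hoxb6 was counted 4, 12 and 17 times in WT, 13 times in KO library 1 and 0 times in KO libraries 2 and 3.

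Schwann cells, the myelinating cells of peripheral nerve, share several of the 10 genes. Genes listed for these cells differed widely in level: Prx had 17 to 28 counts per library, and Pmp2 had none. Drp2 stood at a mean of 98.1 CPM in WT and 93.8 CPM in KO, and Sox2 at 21.2 and 20.5 CPM. In this list of 8 genes 6 were tested, of which 5 lay lower and 1 higher in KO, and among those with the smallest p-values were Ncmap (-0.57, SE 0.227) and Drp2 (-0.06, SE 0.0486). Without KO library 2 Ncmap had -0.34, and without WT library 2 Drp2 had -0.029. The list's summed level lay between 121 and 126 CPM in WT and between 113 and 121 CPM in KO, most of it from Drp2. Astrocyte markers summed to between 5447 and 5615 CPM in WT and between 5257 and 5508 CPM in KO, with 5 of 10 genes on each side and 3 higher and 1 lower at an unadjusted p-value under 0.05. The smallest p-values were those of Aldh1l1 (0.18, SE 0.0560), Aqp4 (-0.17, SE 0.0544) and Fgfr3 (0.13, SE 0.0508), which had 0.062 with GC correction.

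Microglia markers summed to between 258 and 319 CPM in WT and between 251 and 309 CPM in KO, with 5 of 10 on each side and 2 lower without adjustment. P2ry12 had -0.34 (SE 0.0741), Siglech -0.31 (SE 0.101) and C1qc 0.15 (SE 0.117), or 0.015 without KO library 3. The DESeq2 Wald test called P2ry12 (adjusted p = 0.0493), and over all alternatives its adjusted p ran from 0.00407 to 0.999. Neuronal markers summed to between 6628 and 6999 CPM in WT and between 6338 and 6773 CPM in KO. Of the 12 genes 9 lay lower and 3 higher in KO, with a median log2 fold change of -0.04 and 0 past an unadjusted p-value of 0.05. Those with the smallest p-values ran in both directions: Snap25 had -0.09 (SE 0.0432), Slc17a7 0.08 (SE 0.0382) and Tubb3 0.08 (SE 0.0418). With GC correction these values were -0.016, 0.0087 and -0.0039. Forebrain markers summed to between 372 and 421 CPM in WT and between 392 and 400 CPM in KO. Of these 12 genes 10 lay lower and 2 higher in KO, with a median log2 fold change of -0.07 (-0.10 for the 10 myelin genes) and 0 past the same unadjusted threshold. Dlx1, one of the 2 higher genes, had 0.29 (SE 0.133) and Tbr1 -0.07 (SE 0.0662). Dlx1 had 0.16 without WT library 2 and 0.47 without WT library 3. Tbr1 had -0.033 without KO library 2 and -0.14 without WT library 1.

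The genes whose levels followed the mean of the 10 most closely were sought among 10637 other genes with a mean of at least 10 CPM. Likeness was the Pearson correlation, over the 6 libraries, of a gene's log2 CPM with the mean of the members' standardized log2 CPM. The 10 did not share one pattern: r was 0.97 for Mog with Mag but -0.69 for Mobp with Opalin. A gene close to the mean need not follow each member. Among the 5 closest were the integrin gene Itgb4 (r = 0.992), Nsdhl, an enzyme of cholesterol synthesis (0.986), Pcyox1, a prenylcysteine oxidase (0.986), and the DNA damage kinase gene Atr (0.982). With 6 libraries and this many genes, high values arise among unrelated genes as well, and they are given as a description. Between genotypes Itgb4 had a log2 fold change of -0.11 (edgeR adjusted p = 0.770) and Nsdhl one of -0.07 (edgeR adjusted p = 0.852).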

How the data were processed

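Per the submitters' processing notes the tools included cutadapt 1.9.1 and STAR 2.7.0f, and per the labels' protocols RNA over the size cut-off went into TruSeq total RNA libraries. The authors deposited 1 table of whole-number read counts per library, not normalized, in STAR's layout. The build and annotation are not given in the sources used here; the 55450 gene IDs are those of GENCODE M21 (GRCm38), which gave names, positions, exon lengths and GC content. The stranded column with at least 80% of both stranded columns in every library was used (94.6% to 94.8%). Reads on several genes of a strand or several places are not counted.

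Genes were filtered (filterByExpr), TMM-scaled and tested with edgeR 4.0.16 (quasi-likelihood, genotype as sole factor, 6 libraries, Benjamini-Hochberg over 21237 genes) in R 4.3.3. The test was checked on simulated data. SE is the log2 fold change over the root of F; log2 CPM used a prior count of 2. With 3 libraries per group an error covers only the spread between them. Replicate pairs differed by more than sampling noise (chi-square per degree of freedom 4.08 to 8.69).

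The members and lists were chosen with earlier results of these data known. Named were Trmt1l, the 10 members, the 3 genes of each list with the smallest unadjusted p (6 for mature oligodendrocytes) and the 5 closest in pattern; results for some single genes are not reported here, though they stay in fits and counts; motifs, and the promoters printed, were chosen after values were seen. Alternatives were unstranded counts, DESeq2 size factors, total counts, no filter, genes with a mean count of 50 or more, DESeq2 1.42.0 (Wald test), limma-voom (limma 3.58.1), GC correction, the replicate number as a block without and with it, protein-coding genes alone, and each library left out.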

Additional observations from a re-analysis of the deposited data

How the results depend on the processing

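Without a filter on low counts 298 genes passed the threshold over all genes and 1 member did, Ugt8a; with the DESeq2 Wald test 25 genes and 1 member (Ugt8a) did. With the replicate block 4 genes passed and among protein-coding genes alone 1 gene passed, none of them a member. Leaving out 1 library at a time, from 2 to 5 genes and 0 members passed. No other alternative called a member. Over the alternatives that kept all libraries the median log2 fold change of the 10 genes lay between -0.14 and -0.09, and with 1 library left out between -0.16 and -0.04. The difference between proteins and galactolipid genes lay between 0.06 and 0.14 over all of them. GC correction turned Gal3st1 to -0.067 and Tubb3 to -0.0039, and the replicate block with GC correction turned them to -0.069 and -0.0042. With 1 library left out the log2 fold change ranged from -0.17 to -0.037 for Mbp, from -0.25 to -0.099 for Mog, from -0.17 to -0.036 for Mag, from -0.18 to -0.060 for Fa2h, from -0.069 to 0.10 for Mobp, from -0.075 to 0.061 for Cnp, from -0.0085 to 0.059 for Mal, from -0.42 to 0.18 for Opalin and from -0.021 to 0.12 for Gal3st1. That of Ugt8a ranged from -0.47 (without KO library 1) to -0.33 (without KO library 3). Of 33 genes outside the 10 picked from the other lists, 12 moved by over 1.5 times or changed sign with GC correction and 21 with 1 library left out. The cause of these shifts was not tested. Same-numbered KO and WT libraries had deviations that correlated at 0.04, -0.03 and -0.06 across genes. These values give no sign of pairing by number but cannot exclude it. With the replicate block Ugt8a had -0.40 (edgeR adjusted p = 0.192). The scalings moved the median of all genes by at most 0.01 on the log2 scale. Gal3st1 and Opalin, the members with the fewest reads (265 to 751 per library), had the largest SE of the 10, 0.105 and 0.251; the part of depth in this was not tested.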

Other observations

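Reads that fell on a member but on its other strand are held in a separate column, which the results above leave aside. Cnp had 790 to 1072 such reads per library, 12.99% of its reads on both strands, and its exons overlap those of Dnajc7 on the other strand. Mog had 22 to 41, or 2.07%. In each of the other 8 genes the share was at most 0.11%. The members with enough such reads to be tested were 4: Mbp, Mog, Mobp and Cnp. Between genotypes 0 of these 4 passed edgeR's quasi-likelihood test, against 3 of all 10787 genes tested. The 4 had edgeR adjusted p-values between 0.962 and 0.975 and unadjusted ones between 0.365 and 0.630.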
